A study of Mus musculus with 12 samples.

Results

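CD antigens, SLAM receptors and Ly6 molecules are the surface proteins by which blood cells are recognised and sorted, and 88 of the 9984 genes measured in this series carry symbols of this kind. They were taken by symbol alone, as genes whose names begin with Cd, Ly, Slamf, Siglec, Clec, Fcgr, Fcer, Lilr, Pira, Klr or Ms4a in their numbered or lettered forms, without Cd79a, Cd24a and Ms4a2. RNA of sorted bone marrow cells from male C57Bl/6 mice was measured on 12 arrays, 3 for each of 4 groups. The labels give at least 6 generations of backcrossing for all samples. Multipotent progenitors (MPPs) came from Erg -/- mice, in which Mx1-Cre had removed the floxed exon 11 of Erg, and from Erg fl/fl mice that carried no Cre. Mice of both MPP groups had received 5 injections of 200 µl pIpC at 1.5 mg/ml, at intervals of 2 days. They were sorted 2 weeks after the first. Hematopoietic stem cells (HSCs) came from Erg +/- mice, made by crossing the floxed allele to a general Cre deleter, and from Erg +/+ mice. Mx1-Cre is driven by an interferon-responsive promoter and acts in many cell types, so the deletion was not limited to the sorted cells, and the Erg fl/fl controls differ from Erg -/- mice by Cre as well as by Erg. The HSC titles call the Erg +/- samples knock-outs, whereas their genotype field gives 1 remaining allele, which was followed here.

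CD numbers group surface antigens by the antibodies that bind them and not by sequence, so the members include adhesion molecules, inhibitory and activating receptors, and scaffold proteins. SLAM-family receptors mostly bind themselves on neighbouring cells and signal through small SH2 adaptors, and the pattern of CD150 and CD48 separates mouse HSCs from later progenitors. Tetraspanins organise other receptors in the membrane, C-type lectins and Siglecs recognise sugars, Fc receptors bind antibodies, and Klr receptors are best known from natural killer cells.

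HSCs were sorted as lineage marker-negative cells with Sca-1, c-Kit and CD150 on the surface and no CD48. The labels of the MPPs disagree, since the sorting field gives CD150-negative cells and the source field repeats the HSC gate. The genes of the sorting markers (Kit, Ly6a, Slamf1 and Cd48) are not analysed here, so the gates were not checked on their own transcripts, and neither was Erg. Of 5 measured HSC-associated genes outside the members, 5 were lower in Erg fl/fl MPPs than in Erg +/+ HSCs (limma, adjusted p under 0.05). In Erg -/- MPPs against Erg +/- HSCs 5 were also lower by that test. Over all genes 0.631% and 0.11% were called lower in these comparisons. The list was chosen with earlier results of these data known, so these genes are no independent check of the labels. Values are log2 RMA signals, in which 1 unit is a doubling, and adjusted p-values come from limma over all 9984 genes with Benjamini-Hochberg correction. In bulk samples fewer cells of a type and less RNA per cell cannot be told apart.

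The symbol rule also took in 3 genes that are no surface antigens. Cd2ap encodes a cytoplasmic adaptor of CD2, Cd2bp2 a splicing protein and Cd3eap a subunit of RNA polymerase I. Of the Ly6 genes, 4 from the cluster in the major histocompatibility complex were among the members (Ly6g5c, Ly6g6c, Ly6g6d and Ly6g6f). Many members are dim on these arrays. As a yardstick, 403 genes of sensory receptors (olfactory, vomeronasal, trace amine and taste), which blood cells are not known for, had a median signal of 3.16 and a 95th percentile of 4.98 over the 12 arrays. Above that percentile lay 41 members and at or below it 47, of which 10 lay below the sensory median. Signals of different probe sets depend on their probes as well as on the transcript, so they give no order of amounts between genes. Families of near-identical genes (Klr, Clec4a and Clec4b, Clec2, Ms4a6, Cd200r) can share probes, so single members of them are uncertain.

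**Figure D1:**
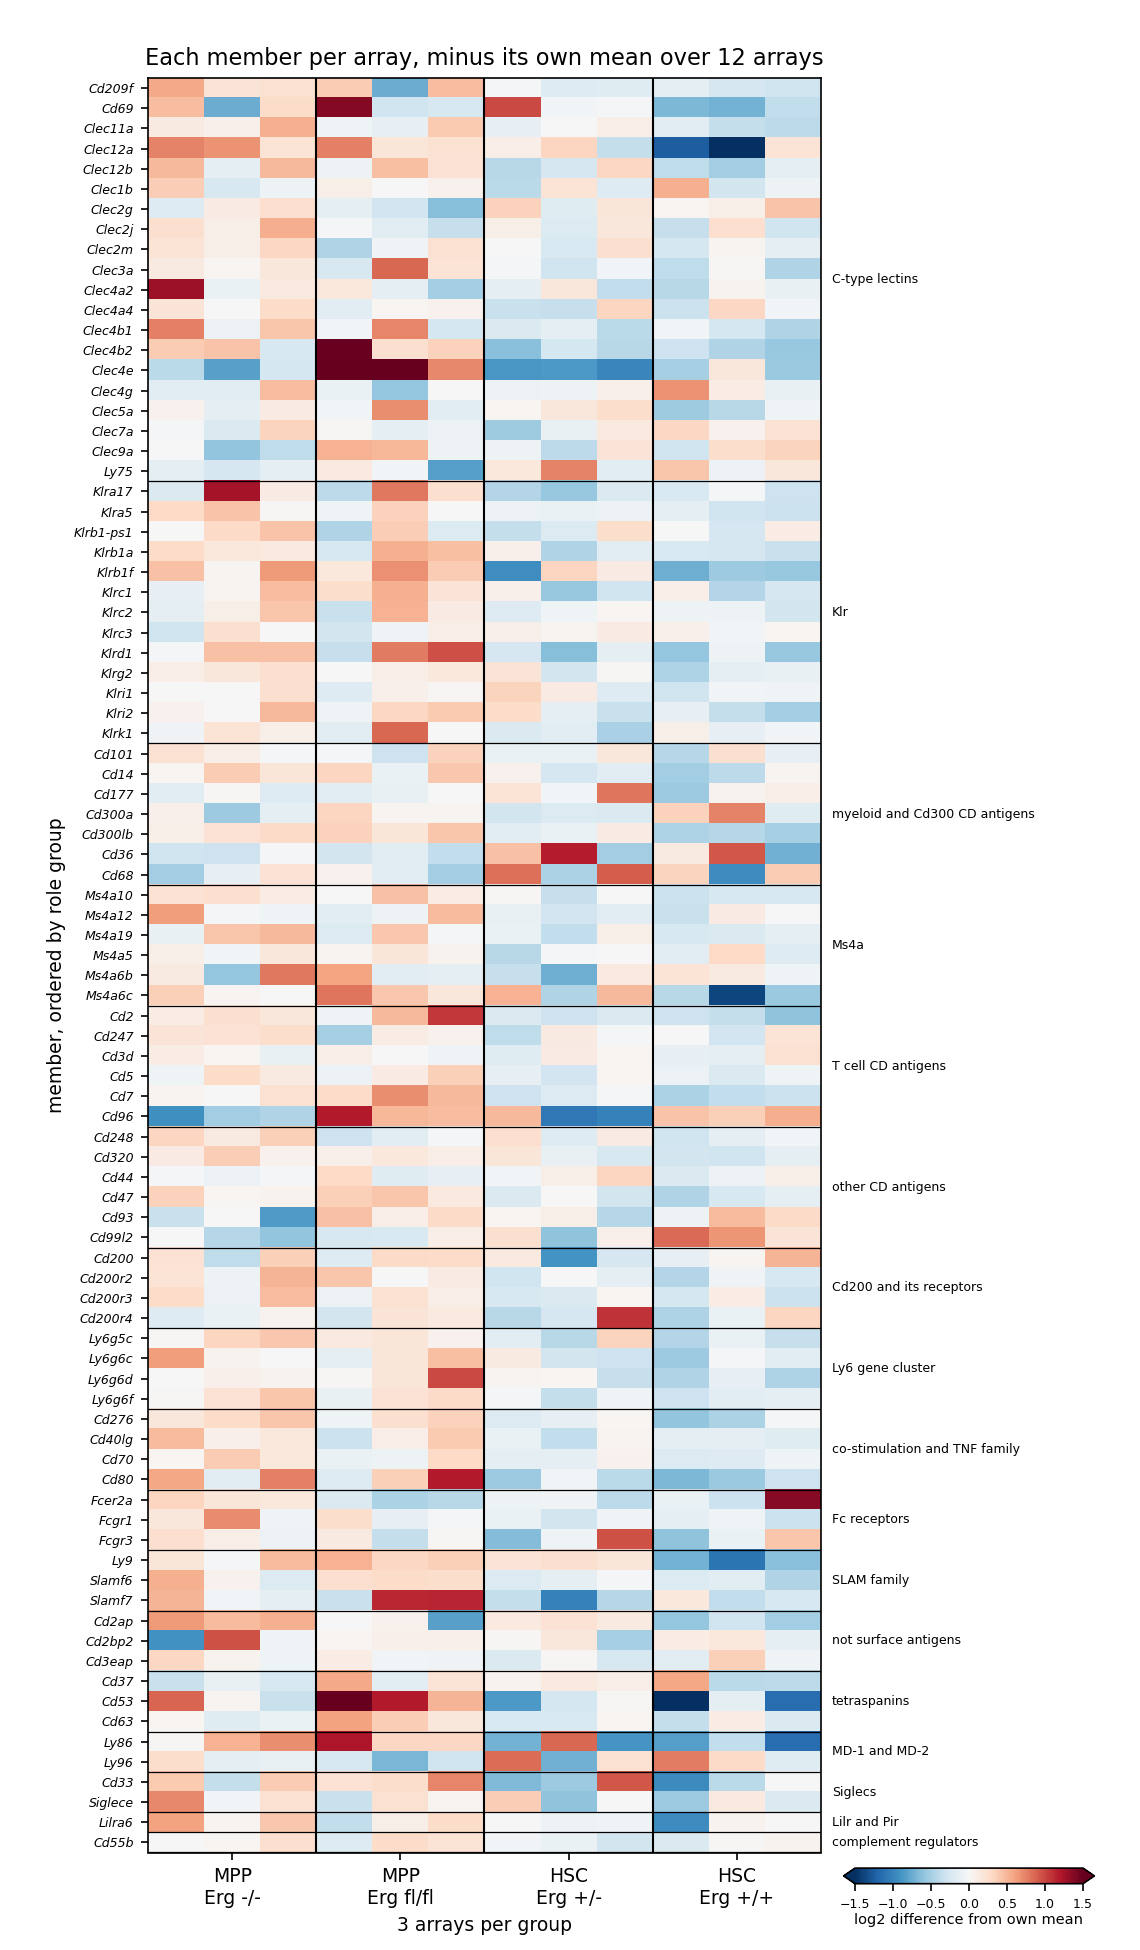
Each row is 1 of the 88 members and each column 1 array, in 4 groups of 3. Colour is the log2 value minus that member's own mean over the 12 arrays, limited to 1.5 either way. Ly9 is blue in the 3 Erg +/+ HSC arrays, and Clec4e is red in the 3 Erg fl/fl MPP arrays.

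The first comparison asked which surface molecules distinguish the control populations, Erg fl/fl MPPs against Erg +/+ HSCs. Of the 88 members 5 passed, all higher in MPPs: Ly9, Cd7, Cd300lb, Clec4e and Cd53, and 0 were lower. Over all genes 1.28% passed, 0.651% of the genes as higher and 0.631% as lower. Ly9, which encodes the SLAM-family receptor CD229, rose 2.315-fold (log2 difference 1.21, SE 0.177, adjusted p = 0.00682). Cd53, a tetraspanin of leukocytes, rose 4.30-fold (2.10, SE 0.424, adjusted p = 0.0343), and Clec4e, the lectin receptor Mincle for microbial glycolipids, rose by 1.99 log2 units (SE 0.397, adjusted p = 0.0332). Cd7, an immunoglobulin-family protein of T and natural killer cells, rose 1.83-fold (0.87, SE 0.161, adjusted p = 0.0248), and Cd300lb, an activating receptor of myeloid cells, rose by 0.78 log2 units (SE 0.147, adjusted p = 0.0274). The labels give pIpC for the MPP mice alone, and these also carry floxed alleles, so population, pIpC and allele cannot be told apart.

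Ly9 read 7.84, 7.64 and 7.68 in Erg fl/fl MPPs, against 6.61, 6.23 and 6.69 in Erg +/+ HSCs. The lowest MPP array lay almost a full unit above the highest HSC array, and Ly9 passed whichever of the 12 arrays was left out (adjusted p up to 0.0312). Cd53 read 10.62, 10.10 and 9.42 in Erg fl/fl MPPs, against 7.30, 8.76 and 7.77 in Erg +/+ HSCs. Its arrays did not overlap but were widely spread within both groups, with SDs of 0.606 and 0.746. Clec4e read 7.37, 6.20 and 5.32 in Erg fl/fl MPPs, against 4.11, 4.77 and 4.04 in Erg +/+ HSCs. Its HSC arrays were all within the range of the sensory receptor genes, so its difference is one between a measured signal and a dim one, and no fold is given for it. Cd7 read 5.86, 6.28 and 6.07 in Erg fl/fl MPPs, against 5.11, 5.22 and 5.27 in Erg +/+ HSCs. Cd300lb read 4.47, 4.31 and 4.54 in Erg fl/fl MPPs, against 3.66, 3.70 and 3.62 in Erg +/+ HSCs, and all of these arrays lay below the sensory 95th percentile, so no fold is given here either.

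The calls other than Ly9 were lost without single arrays or under other settings. After repeated quantile normalisation Cd300lb stood at 0.57 (adjusted p = 0.0882) and 4 members were called. Without Erg +/+ HSC replicate 1 the adjusted p was 0.0654 for Cd7, 0.0609 for Cd300lb, 0.0783 for Clec4e and 0.0875 for Cd53, and without Erg fl/fl MPP replicate 2 it was 0.0851, 0.0571, 0.0912 and 0.108 for the same genes, so that Ly9 was the 1 member called in both cases. Without Erg +/+ HSC replicate 3 Cd300lb (0.0666), Clec4e (0.0777) and Cd53 (0.0763) missed the threshold, while Clec12a passed (0.0105), which left 3 members called. Without Erg fl/fl MPP replicate 3 Cd7 (0.0867) and Cd300lb (0.106) missed it, which also left 3, and without Erg fl/fl MPP replicate 1 Cd53 did (0.0701), although 7 members were then called.

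Markers of other cell types moved with these calls. Of 5 B cell markers 3 rose in Erg fl/fl MPPs against Erg +/+ HSCs (Vpreb1 by 3.00, Igll1 by 2.39 and Ebf1 by 1.49 log2 units), and the list mean was 6.77 to 7.30 over the Erg fl/fl arrays and 5.17 to 5.72 over the Erg +/+ arrays. Of 4 mast cell and basophil markers Mcpt8 rose by 4.13, with list means of 4.85 to 5.71 over the Erg fl/fl arrays and 3.86 to 3.91 over the Erg +/+ arrays. Of 3 dendritic cell markers Irf8 rose by 1.05, and the lowest of the Erg fl/fl list means lay above the Erg +/+ ones, which were 4.65 to 5.00. Of 6 endothelial and stromal markers Sparc fell by 1.40, with list means of 5.79 to 5.99 over the Erg fl/fl arrays and 6.16 to 6.74 over the Erg +/+ arrays. No marker of the cytotoxic, T cell, macrophage and monocyte, granulocyte, erythroid or megakaryocyte lists passed here. Means of the 2 cytotoxic markers still lay higher over the Erg fl/fl arrays (7.15 to 7.34) than over the Erg +/+ arrays (5.48 to 6.44). The 1 measured T cell marker, Zap70, also lay higher, and the means of 2 granulocyte markers lay lower, both without overlap. The macrophage and monocyte, erythroid and megakaryocyte means overlapped. Their part in the differences of the members was not tested.

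**Figure D2:**
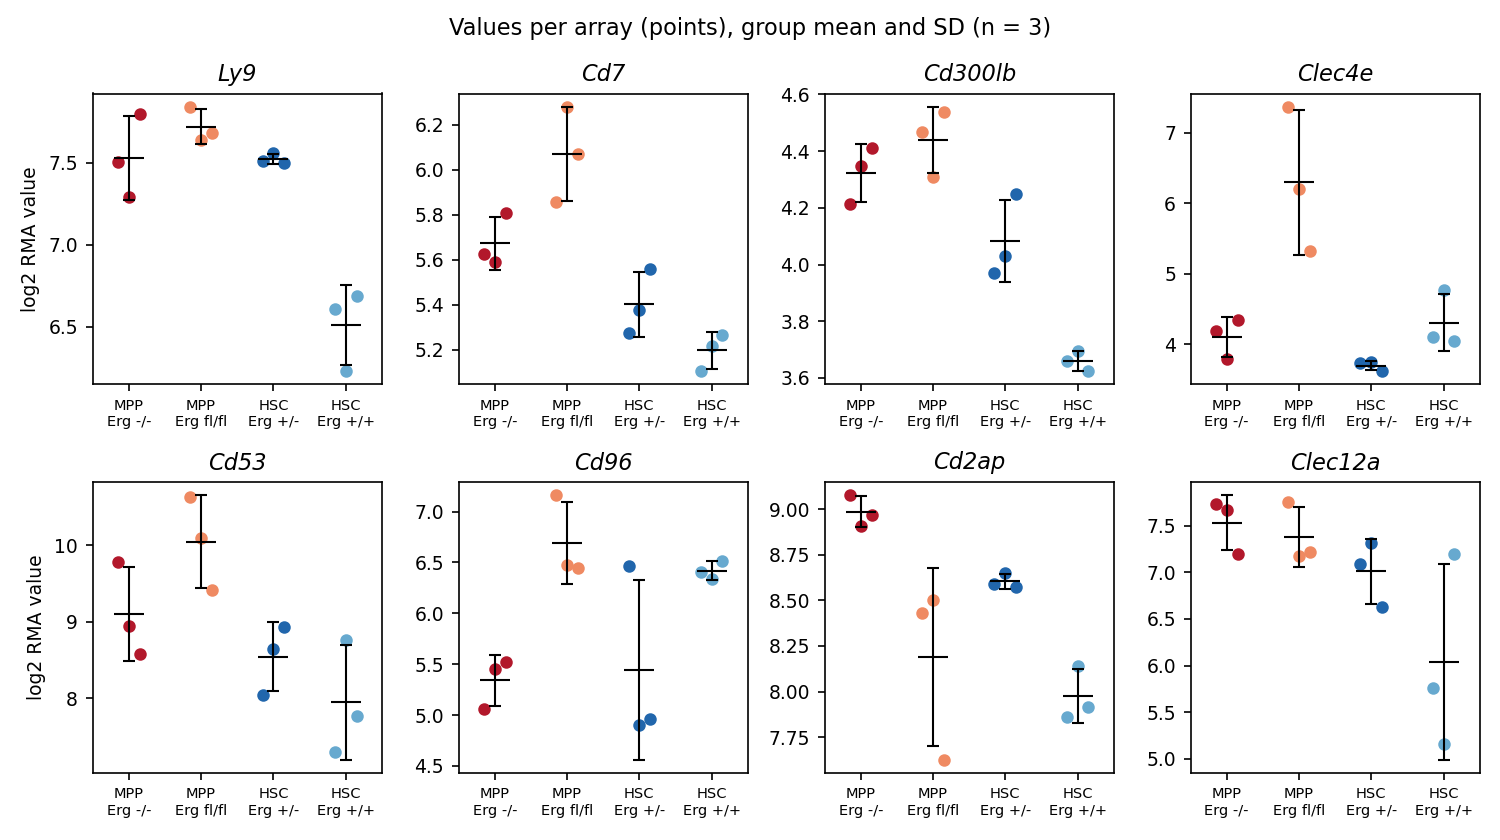
Points are single arrays for 8 members, on a log2 scale that differs between panels, with the group mean and SD (n = 3) in black. Ly9 is lower in the Erg +/+ HSC arrays (6.23 to 6.69) than in the 9 other arrays, and Clec4e is higher in the Erg fl/fl MPP arrays (5.32 to 7.37) than in the 9 others.

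The sequences upstream of 5 members are shown because the factor removed in this study is an ETS protein, a family that binds DNA around a GGAA core. They are the 250 bases before the annotated start in RefSeq (GRCm38.p6), 5′ to 3′ on the gene's strand, for the called members Cd53, Clec4e and Cd300lb, and for Cd96 and Cd2ap, which are described with the Erg comparisons. Ly9 and Cd7 are named only. Capitals mark GGAAG on either strand (read as CTTCC on the other), a motif that 64.1% of 32851 mouse windows of this length hold and that 58 of 81 windows of the members hold, 71.6%. Coordinates are chr3:106790150-106790399 for Cd53, chr6:123289872-123290121 for Clec4e, chr11:114934372-114934621 for Cd300lb, chr16:46120249-46120498 for Cd96 and chr17:42876425-42876674 for Cd2ap, all on the minus strand.
Cd53: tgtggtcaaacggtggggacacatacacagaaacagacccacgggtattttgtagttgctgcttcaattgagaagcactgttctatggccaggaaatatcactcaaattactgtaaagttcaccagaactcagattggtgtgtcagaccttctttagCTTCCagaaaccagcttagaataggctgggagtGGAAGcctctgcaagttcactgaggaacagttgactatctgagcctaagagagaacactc
Clec4e: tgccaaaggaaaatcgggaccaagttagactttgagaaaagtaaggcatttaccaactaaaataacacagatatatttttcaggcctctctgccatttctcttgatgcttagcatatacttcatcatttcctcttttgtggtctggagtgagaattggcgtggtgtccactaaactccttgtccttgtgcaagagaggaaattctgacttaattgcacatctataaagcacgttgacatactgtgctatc
Cd300lb: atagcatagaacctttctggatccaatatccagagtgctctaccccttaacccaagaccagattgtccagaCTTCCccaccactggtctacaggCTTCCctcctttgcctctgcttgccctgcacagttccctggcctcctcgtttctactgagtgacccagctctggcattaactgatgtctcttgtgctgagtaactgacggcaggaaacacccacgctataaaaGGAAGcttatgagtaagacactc
Cd96: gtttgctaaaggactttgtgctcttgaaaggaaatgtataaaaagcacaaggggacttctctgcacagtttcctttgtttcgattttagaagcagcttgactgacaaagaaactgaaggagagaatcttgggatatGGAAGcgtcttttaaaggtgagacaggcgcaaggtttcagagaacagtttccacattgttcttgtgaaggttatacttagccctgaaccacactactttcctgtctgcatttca
Cd2ap: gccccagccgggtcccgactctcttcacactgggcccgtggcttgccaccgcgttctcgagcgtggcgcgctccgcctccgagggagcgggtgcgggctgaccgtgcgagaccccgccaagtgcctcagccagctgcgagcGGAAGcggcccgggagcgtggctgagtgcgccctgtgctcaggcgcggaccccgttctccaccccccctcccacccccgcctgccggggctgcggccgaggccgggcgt
The Cd53 window holds 2 matches to GGAAG, Cd300lb 3, Cd96 and Cd2ap 1 each, and Clec4e 0. GGAA followed by another base was neither marked nor counted, and the Clec4e window does hold it. A match is a description of the letters and no measured binding site.

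By role, counts of positive differences are read against 62.3% of all genes and 340 of the 403 sensory receptor genes, and role groups were not tested. Of the SLAM family, Slamf6, a receptor of lymphocytes, stood at 0.54 log2 units (adjusted p = 0.139) and Slamf7, a receptor of natural killer and plasma cells, at 0.79 (adjusted p = 0.219), so that 1 of 3 passed and 3 of 3 were positive. Slamf6 read 4.60, 4.62 and 4.61 in Erg fl/fl MPPs, against 4.14, 4.19 and 3.90 in Erg +/+ HSCs, with no overlap but below the sensory 95th percentile. Slamf7 read 3.78, 5.24 and 5.26 in Erg fl/fl MPPs, against 4.28, 3.74 and 3.87 in Erg +/+ HSCs, and passed without Erg fl/fl replicate 1 (1.29, adjusted p = 0.0489). Of the tetraspanins, Cd63, a protein of lysosomes and secretory granules, stood at 0.54 (adjusted p = 0.128) and Cd37, of mature lymphocytes, at 0.27. Cd47, the signal that protects cells from phagocytosis, read 11.63, 11.68 and 11.42 in Erg fl/fl MPPs, against 10.82, 11.03 and 11.14 in Erg +/+ HSCs (0.58, adjusted p = 0.0953), without overlap.

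Among the T cell antigens Cd2, an adhesion receptor, stood at 0.92 (adjusted p = 0.0737), and passed without Erg fl/fl replicate 1 (1.20, adjusted p = 0.0179). Cd3d, a chain of the T cell receptor complex, read 3.82, 3.72 and 3.66 in Erg fl/fl MPPs, against 3.60, 3.58 and 3.94 in Erg +/+ HSCs. It stayed below the sensory 95th percentile in all 4 groups, and the SD of its 12 values was at the 1.13th percentile of all genes. Of the Ms4a genes, which encode membrane-spanning proteins, the bright Ms4a6b stood at 0.01, and Ms4a6c stood at 1.24 (adjusted p = 0.0698) and passed without Erg +/- HSC replicate 2 (0.0415). Ly86, which encodes MD-1, the partner of the receptor RP105, stood at 1.39 (adjusted p = 0.105, and 0.0415 without Erg +/- HSC replicate 2), whereas Ly96, which encodes MD-2, the partner of TLR4, stood at -0.70 (adjusted p = 0.253). Of 13 Klr genes 0 were called, 11 had positive differences, which is near the share of the sensory receptor genes, and Klrb1f had the smallest p at 1.02 (adjusted p = 0.0983, and 0.0365 without Erg +/- HSC replicate 1).

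Of 20 C-type lectins Clec4e was called and 12 were positive, which is near the share of all genes. Clec4b2 stood at 1.13 (adjusted p = 0.0818) and Clec12a, an inhibitory receptor of myeloid cells, at 1.34 (adjusted p = 0.108), while Clec2g stood at -0.53, Clec4g at -0.46 and Ly75, the endocytic receptor DEC-205, at -0.41. A second probe set of Clec4g averaged 4.60 in Erg fl/fl MPPs and 4.48 in Erg +/+ HSCs, the opposite direction to the first. Of the remaining members with lower values in MPPs, Cd99l2, a relative of the adhesion molecule CD99, read 6.07, 6.08 and 6.41 in Erg fl/fl MPPs, against 7.16, 6.97 and 6.50 in Erg +/+ HSCs (-0.69, adjusted p = 0.151), and Fcer2a, the low-affinity receptor for IgE, stood at -0.69 (adjusted p = 0.251). The Fcer2a difference came with 1 high array, Erg +/+ replicate 3 at 5.71, where the 11 others lay at 4.66 or lower, and without it the difference was -0.16. Ly6g6d stood at 0.74, Cd80, a ligand of CD28, at 0.96, Cd200r2 at 0.42 and the sialic acid receptor Cd33 at 0.85, and none of these passed.

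**Figure D3:**
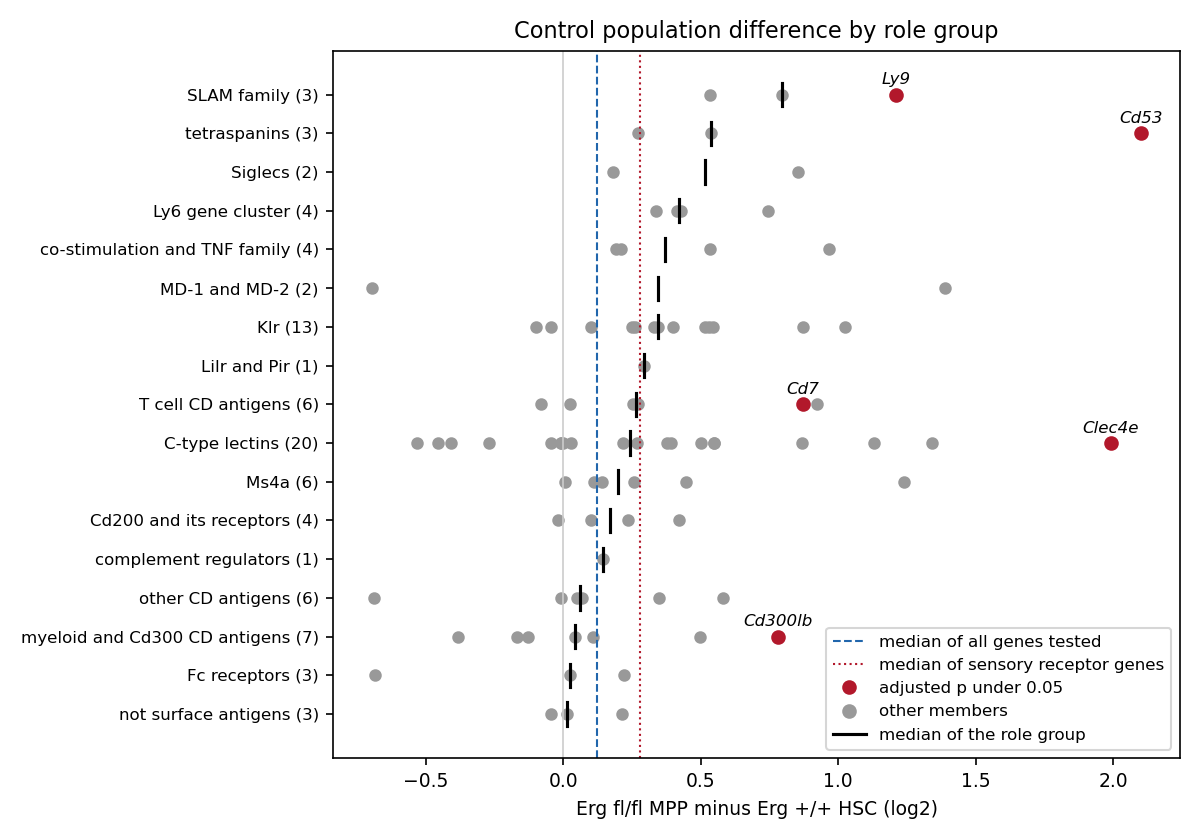
Each point is the log2 difference of 1 member between Erg fl/fl MPPs and Erg +/+ HSCs, by role group, with the number of members in brackets. The 5 members with adjusted p under 0.05 are red, black bars are group medians, and the vertical lines mark the medians of all genes (0.122) and of sensory receptor genes (0.279).

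Most members lay higher in MPPs, but so did genes that blood cells are not known for. The median control difference was 0.26 log2 units over the 88 members, with 68 positive, against a median of 0.122 and 62.3% positive over all genes. It was 0.26 for the 47 dim members and 0.28 for the 403 sensory receptor genes, and 0.25 for the 41 brighter members. At an unadjusted p under 0.05 there were 30 members, 28 higher and 2 lower, where the shares over all genes were 22.3%, with 14.4% higher and 7.91% lower. Groups did not overlap for 32 members, 28 of them higher and 4 lower, against 27% of all genes, with 18.5% higher and 8.54% lower. The arrays differ in spread, with interquartile ranges of 2.50 to 2.84 in MPP arrays and 2.83 to 2.99 in HSC arrays. After a repeated quantile normalisation the median difference was 0.134 for the members, 0.1575 for the sensory receptor genes and 0.0296 for all genes. Positive were 59 of 88 members and 5381 of 9984 genes. At an unadjusted p under 0.05, 19 members were higher and 5 lower, against 928 higher and 909 lower over all 9984 genes. The part of the array spread in the shift of the dim members was not tested.

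The second comparison set MPPs against HSCs with Erg reduced, Erg -/- MPPs against Erg +/- HSCs, on arrays not used in the first. Its sides also differ in Erg dose, way of deletion and pIpC, which cannot be told apart from population. Of the 88 members 0 passed (limma), 3 had an unadjusted p under 0.05 (Clec4b1, Klra17 and Cd80, all higher in MPPs), and over all genes 0.12% passed (0.11% on the lower side). Clec4b1 (mean 2.77 over all arrays), Klra17 (2.67) and Cd80 (4.54) all lay within the range of the sensory receptor genes. Clec4b1 and Klra17 lay below the sensory median of 3.16. The sensory receptor genes had a median difference of 0.34 here, in the same direction. At the unadjusted threshold the share over all genes was 3.85%, made of 1.79% higher and 2.05% lower. The 5 members called between the controls stood at 0.01 (Ly9), 0.27 (Cd7), 0.24 (Cd300lb), 0.41 (Clec4e) and 0.56 (Cd53) log2 units here, with SEs of 0.177, 0.161, 0.147, 0.397 and 0.424. Ly9 read 7.50, 7.29 and 7.80 in Erg -/- MPPs, against 7.51, 7.56 and 7.50 in Erg +/- HSCs. The groups overlapped, and both lay at about the level of the Erg fl/fl MPPs. Cd7 read 5.62, 5.59 and 5.81 in Erg -/- MPPs, against 5.27, 5.38 and 5.56 in Erg +/- HSCs, which did not overlap.

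With Erg reduced, 70 of 88 members had positive differences, against 59.9% of all genes. The median was 0.26 for the members, 0.34 for the sensory receptor genes and 0.101 for all genes. Groups did not overlap for 26 members, 25 of them higher and 1 lower (Cd37), against 20.1% of all genes, with 14.7% higher and 5.47% lower. The differences with the smallest p were 0.62 for Clec4b1, 0.80 for Klra17, 0.72 for Cd80 and 0.37 for Ly6g6f. Next came 0.62 for Clec4b2 and 0.39 for Cd276, an immune checkpoint ligand (limma, adjusted p = 0.446 for each of the 6). Ly6g6f and Cd276 lay above the range of the sensory receptor genes, and the others of the 6 lay within it. On the negative side stood Cd177, a neutrophil antigen, at -0.44, Cd68, a lysosomal protein of macrophages, at -0.57, Cd36, a scavenger receptor, at -0.57, Ly75 at -0.42, Cd37 at -0.33 and Cd93 at -0.30. Several of these moved with 1 array left out. Klra17 was 0.37 without Erg -/- MPP replicate 2, and Cd93 was -0.07 without Erg -/- MPP replicate 3. Without Erg +/- HSC replicate 2 Cd36 and Ly75 were both at -0.17, and without Erg +/- HSC replicate 3 Cd36 was at -1.01 and Cd177 at -0.20. Fcgr1, the high-affinity IgG receptor, stood at 0.42, Lilra6 at 0.40 and Cd55b, a complement regulator, at 0.23. In 5 members the 6 MPP arrays of both genotypes lay above the 6 HSC arrays of both: Cd2, Cd47, Cd7, Clec4b2 and Klra5, which is 5.68% of members against 2.07% of all genes, and 0 members had the 6 MPP arrays below, against 0.701%. Of the 5, Cd2 (mean 4.97 over all arrays), Clec4b2 (3.88) and Klra5 (2.57) lay within the range of the sensory receptor genes. Those genes also stood higher in MPPs, and their part in this share was not tested. Cd47 (11.27) and Cd7 (5.59) lay above that range. In all, 64 members had the same sign in both population comparisons (72.7%), against 74.9% of all genes.

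**Figure D4:**
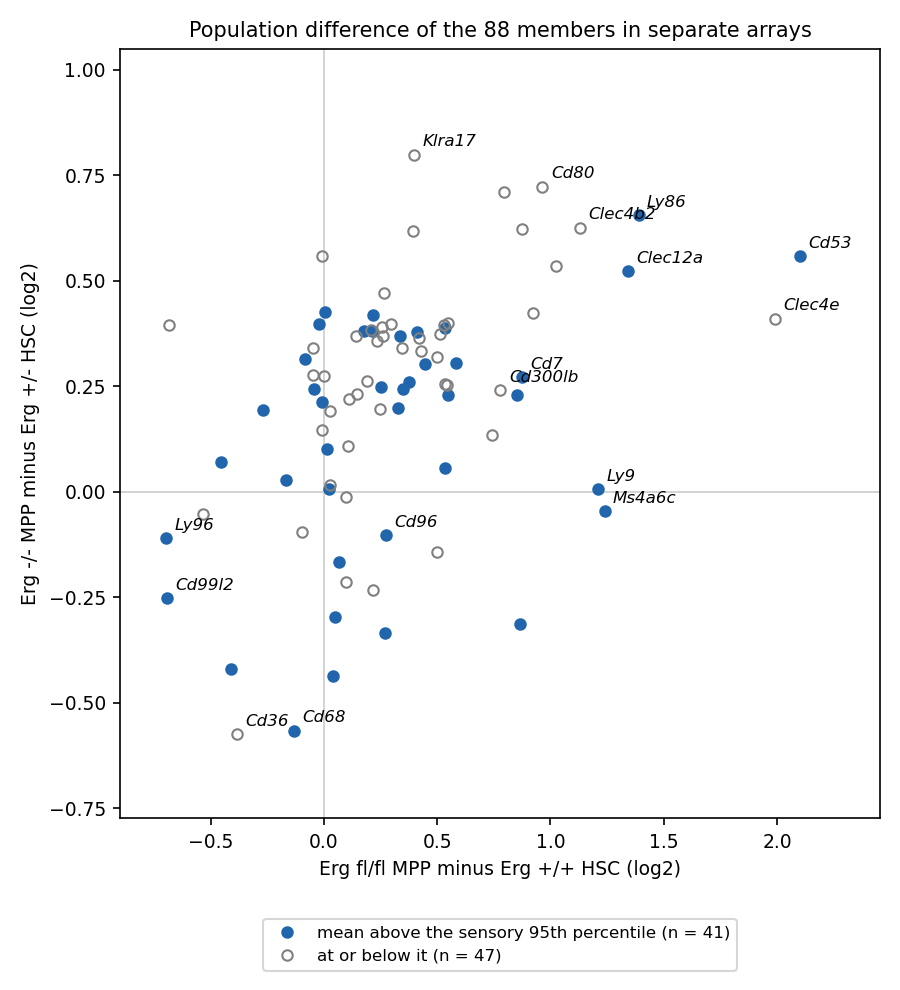
Each point is 1 of the 88 members, with its log2 difference between the control populations on the horizontal axis and between the Erg-reduced populations on the vertical axis, which share no arrays. Ly9 and Ms4a6c lie at 1.21 and 1.24 on the horizontal axis and near 0 on the vertical axis.

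The third comparison set HSCs with 1 Erg allele against HSCs with both. Of the 88 members 0 passed (limma), and 9 had an unadjusted p under 0.05, 6 higher and 3 lower, against 0.02% of all genes passing and 6.32% at an unadjusted p under 0.05 (2.73% higher and 3.59% lower). Ly9 had the smallest p. It read 7.51, 7.56 and 7.50 in Erg +/- HSCs, against 6.61, 6.23 and 6.69 in Erg +/+ HSCs, which is 1.01 log2 units or 2.02-fold (SE 0.177, adjusted p = 0.0958). The 3 Erg +/- arrays lay close together and above the 3 Erg +/+ arrays. With 1 array left out the difference ranged from 0.87 to 1.10 and the adjusted p from 0.083 to 0.262, so the call was missed in each case. The other SLAM genes did not share it, with Slamf6 at 0.15 and Slamf7 at -0.45.

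Ms4a6c read 8.34, 7.37 and 8.31 in Erg +/- HSCs, against 7.41, 6.45 and 7.27 in Erg +/+ HSCs (0.96, SE 0.306, adjusted p = 0.606), and the lowest Erg +/- array overlapped with the Erg +/+ arrays. Replicate 2 was the lowest array in both groups, and Ms4a6c did not pass with the replicate block either. Clec12a read 7.09, 7.31 and 6.63 in Erg +/- HSCs, against 5.76, 5.16 and 7.20 in Erg +/+ HSCs (0.97, SE 0.41, adjusted p = 0.789). Its difference was 1.55 without Erg +/+ replicate 3, the high array of that group, with an adjusted p of 0.116, and 0.53 without Erg +/+ replicate 2. The myeloid receptors Cd300lb at 0.42 and Clec5a at 0.49 had Erg +/- arrays above all Erg +/+ arrays, as did Cd69, the early activation antigen, at 0.90, while Cd300a, an inhibitory receptor, at -0.53 had them below. These did not pass (adjusted p from 0.740 to 0.834), and Cd69 was 0.55 without Erg +/- replicate 1.

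Cd96, a receptor of T and natural killer cells that binds CD155, read 6.46, 4.91 and 4.97 in Erg +/- HSCs, against 6.41, 6.33 and 6.52 in Erg +/+ HSCs (-0.97, SE 0.355, adjusted p = 0.740). Erg +/- replicate 1 read like the Erg +/+ arrays and the other Erg +/- arrays lay lower, and without that replicate the difference was -1.48 (adjusted p = 0.0776). Cd99l2 stood at -0.66, Clec7a, the glucan receptor Dectin-1, at -0.36 and Cd200, an inhibitory ligand, at -0.47. Groups did not overlap for 11 members, 8 higher and 3 lower, against 10.4% of all genes (6.06% higher and 4.38% lower), close to the share over all genes. Differences were positive in 60 of 88 members, with a median of 0.09, against 53.8% positive and a median of 0.02 over all genes. Several marker lists of other cells did not overlap between these groups, while the B cell, cytotoxic, and macrophage and monocyte lists did. The dendritic cell, mast cell and basophil, and HSC-associated means lay higher over the Erg +/- arrays. So did Zap70, the 1 measured of 10 listed T cell markers, with a mean of 4.69 within the range of the sensory receptor genes. The granulocyte means (2 of 12 listed genes, Mmp8 and Mmp9) and the megakaryocyte means lay lower over the Erg +/- arrays. No marker of these lists passed. Of 6 endothelial and stromal markers Sparc fell by 2.08 log2 units and the others did not pass, and the list mean was 5.45 to 5.58 over the Erg +/- arrays and 6.16 to 6.74 over the Erg +/+ arrays. Of 7 erythroid markers 0 passed, and the list mean was 6.76 to 7.01 over the Erg +/- arrays and 5.75 to 6.17 over the Erg +/+ arrays. Their part in the differences of the members was not tested.

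The fourth comparison set MPPs without Erg against MPPs with both floxed alleles intact. Of the 88 members 0 passed (limma), and 10 had an unadjusted p under 0.05, 3 higher and 7 lower, against 0.0801% of all genes passing and 4.79% at an unadjusted p under 0.05 (1.21% higher and 3.58% lower). Clec4e had the smallest p and the widest gap. It read 4.19, 3.79 and 4.34 in Erg -/- MPPs, against 7.37, 6.20 and 5.32 in Erg fl/fl MPPs (-2.19, SE 0.397, adjusted p = 0.109). The groups did not overlap, and the Erg -/- arrays lay within the range of the sensory receptor genes. Without Erg fl/fl replicate 3, the lowest of its group, the difference was -2.68 and passed (adjusted p = 0.0135). Over all alternatives the adjusted p ranged from 0.0135 to 0.493. Clec4e is known from macrophages, and the mean of 4 macrophage and monocyte markers outside the members (Itgam, C1qa, C1qb and C1qc) was 5.71 to 5.96 over the Erg -/- arrays and 5.496 to 5.86 over the Erg fl/fl arrays. In other lists single genes fell with it. Of 5 B cell markers Vpreb1 fell by 4.75 log2 units and Igll1 fell by 1.88, and the list mean was 5.22 to 5.51 over the Erg -/- arrays and 6.77 to 7.30 over the Erg fl/fl arrays. Of 2 cytotoxic markers Nkg7 fell by 3.05 while Il2rb stood at 0.07, with list means of 5.38 to 6.31 over the Erg -/- arrays and 7.15 to 7.34 over the Erg fl/fl arrays. Of 4 mast cell and basophil markers Mcpt8 fell by 3.54 while Mcpt1 stood at 0.35, with list means of 4.12 to 4.46 over the Erg -/- arrays and 4.85 to 5.71 over the Erg fl/fl arrays. Of 5 HSC-associated genes Ifitm1 fell by 1.66 while Nupr1 stood at 0.05. The means of that list were 6.23 to 6.45 over the Erg -/- arrays and 6.86 to 6.99 over the Erg fl/fl arrays. Dendritic cell means also lay lower without overlap, although no gene of that list passed. The T cell, granulocyte, erythroid, megakaryocyte, and endothelial and stromal means overlapped. The part of these lists in the Clec4e values was not tested.

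Cd96 read 5.06, 5.45 and 5.52 in Erg -/- MPPs, against 7.16, 6.47 and 6.44 in Erg fl/fl MPPs (-1.35, SE 0.355, adjusted p = 0.533), without overlap. Cd96 missed the threshold in all alternatives except without Erg +/- HSC replicate 1, an array that enters this contrast only through the shared spread (adjusted p = 0.0492). Cd2ap read 9.08, 8.91 and 8.97 in Erg -/- MPPs, against 8.43, 8.50 and 7.63 in Erg fl/fl MPPs (0.80, SE 0.213, adjusted p = 0.577). Leaving out the third Erg fl/fl array, the lowest, made this 0.52. It read 8.59, 8.65 and 8.58 in Erg +/- HSCs, against 7.86, 8.14 and 7.92 in Erg +/+ HSCs (0.63, SE 0.213, adjusted p = 0.699). Cd2ap was the 1 member with the arrays of lower Erg dose above their controls in both populations, which 0.361% of all genes had, and Clec4e the 1 with them below, which 0.421% had. In HSCs the Clec4e difference was -0.61 (limma, adjusted p = 0.898), and -0.375 without Erg +/+ replicate 2. All HSC arrays of Clec4e lay within the range of the sensory receptor genes.

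Of the bright members Cd93, a lectin-like protein of early progenitors and endothelium, read 8.69, 9.02 and 8.18 in Erg -/- MPPs, against 9.47, 9.13 and 9.32 in Erg fl/fl MPPs (-0.67, adjusted p = 0.977). The 3 tetraspanins were all lower, Cd53 at -0.95, Cd63 at -0.47 and Cd37 at -0.43, and none passed. Cd53 read 9.78, 8.94 and 8.57 in Erg -/- MPPs, against 10.62, 10.10 and 9.42 in Erg fl/fl MPPs, which overlapped. Cd63 read 10.78, 10.57 and 10.65 in Erg -/- MPPs, against 11.36, 11.12 and 10.92 in Erg fl/fl MPPs, which did not. Cd7 stood at -0.40 and Clec9a, a receptor of dendritic cells for dead cells, at -0.64. On the positive side Cd248, the stromal antigen endosialin, stood at 0.44, Clec2j at 0.47, Clec2g at 0.41, Clec4a2, an inhibitory lectin receptor, at 0.61 and Fcer2a at 0.59. Clec4a2 was 0.19 without Erg -/- replicate 1, which read 5.78 against 4.41 and 4.65 in the other Erg -/- arrays. The SLAM genes stood at -0.19 (Ly9), -0.13 (Slamf6) and -0.54 (Slamf7). Groups did not overlap for 11 members, 6 higher and 5 lower, against 10.5% of all genes, with 4.36% higher and 6.1% lower. Differences were positive in 46 of 88 members, against 49.4% of all genes.

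**Figure D5:**
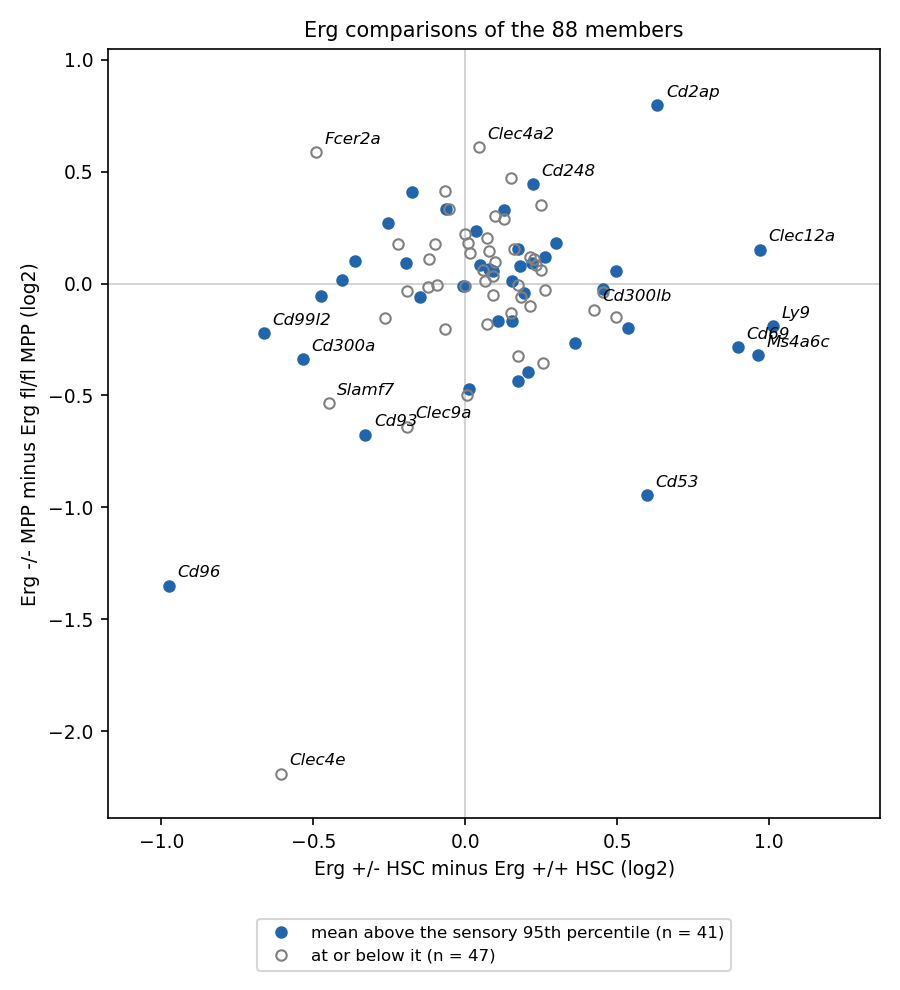
Each point is 1 of the 88 members, with its log2 difference between Erg +/- and Erg +/+ HSCs on the horizontal axis and between Erg -/- and Erg fl/fl MPPs on the vertical axis, which share no arrays. Cd96 at -0.97 and -1.35 lies low on both axes, Cd2ap at 0.63 and 0.80 high on both, and Ly9 lies at 1.01 and -0.19.

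The MPP effect minus the HSC effect, which is also the Erg-reduced minus the control population difference, was passed by 0 of the 88 members (limma), with 7 at an unadjusted p under 0.05, 1 positive and 6 negative, against 0.02% of all genes passing and 3.88% at an unadjusted p under 0.05 (1.43% positive and 2.44% negative). Values were positive in 37 members, against 46.1% of all genes. Ly9 stood at -1.20 (SE 0.251, unadjusted p = 0.000397, adjusted p = 0.248). The population difference of Ly9, called between the controls and 0.01 with Erg reduced, did therefore not differ between Erg states by a test that passed. Erg dose and way of deletion in the reduced state differ between MPPs and HSCs and cannot be told apart from population. Negative values with larger p belonged to Ms4a6c at -1.28, Clec4e at -1.58, Cd7 at -0.60, Cd300lb at -0.54 and Cd53 at -1.54 (adjusted p = 1.00 for each after rounding). These 6 include the 5 members called between the controls, whose arrays enter this contrast with the opposite sign, so the direction is not independent of those calls. Positive values belonged to Fcer2a at 1.08 (0.55 without Erg +/+ HSC replicate 3), Clec2g at 0.48, Clec7a at 0.46, Clec4g at 0.53, Clec4a2 at 0.57 and Cd247, the zeta chain of the T cell receptor complex, at 0.39. The sign was the same in HSCs and MPPs for 48 of the 88 members (54.5%), against 54.7% of all genes, with a Pearson r of 0.217 and a Spearman rho of -0.00965 across members, against 0.135 and 0.1335 across all genes.

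CD antigens whose symbols follow other rules were measured for 18 of 50 listed genes. Between the controls 1 rose in Erg fl/fl MPPs (Flt3, the receptor CD135, at 2.57 log2 units) and 1 fell (Eng, the receptor CD105, at -3.61), and with Erg reduced the same 2 genes passed, Flt3 at 4.42 and Eng at -3.84. In the comparisons of Erg genotypes 0 of the 18 passed. Of 6 measured adaptors and signalling partners of these receptors (Sh2d1a, Sh2d1b1, Sh2d1b2, Hcst, Syk and Inpp5d) 0 passed in any comparison. Sh2d1b1, which encodes the SLAM adaptor EAT-2, stood at 0.93 between the controls with adjusted p = 0.0652, and Sh2d1a, which encodes the adaptor SAP, at 0.20.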

How the data were processed

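Values were deposited as log2 signals, made with RMA and the affy package per the submitters' processing notes. No source used here says whether RMA was run on the 12 arrays jointly. Of 18719 probe sets, 10657 have 1 gene symbol in the platform annotation, 523 several and 7539 none listed. The brightest probe set stood for each of 9984 genes. A limma model (version 3.58.1, in R 4.3.3) took a mean for each group over the 12 arrays without any filter, and tests were two-sided with Benjamini-Hochberg adjustment over all genes. Arrays carry no read depth, and 3 per group limits the precision. The labels do not say that samples are separate animals. P-values therefore reflect the variation among these samples, which may be technical. Members, role groups and lists were chosen with earlier results of these data known. Named were the members called in each comparison, the 6 of smallest p in each direction, the 5 of highest mean, the SLAM family and the leading member of each role group. Cd2, Clec12a and Clec4b2 between the controls, Cd69 in HSCs, Cd3d, Cd37 outside the Erg-reduced populations, and genes named for not overlapping were chosen after their values were seen. Over all genes, deviations of same-numbered arrays correlated at -0.0852 to 0.104, so numbers were not taken as pairs. Single members (Ms4a6c, Cd68 and Cd36) did follow the replicate number across both HSC groups, which was seen afterwards. Alternatives were a replicate block, a filter on dim genes, averaged probe sets, repeated quantile normalisation, trended robust moderation, weighted arrays, a fit to the compared groups alone, a fit to the whole table, and 1 array left out. Leaving out both arrays of lowest weight was chosen after seeing the data.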

Additional observations from a re-analysis of the deposited data

How the results depend on the processing

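The count of 5 members called between the control populations was 3 with the filter on dim genes, 1 with only the arrays compared, 1 over all deposited probe sets, 2 without the arrays of lowest weight (Erg fl/fl MPP replicate 1 and Erg +/+ HSC replicate 1), and 1 to 7 with 1 array left out, and Ly9 was among them each time (adjusted p up to 0.0497). With the replicate block 6 were called, the same 5 and Ms4a6c (adjusted p = 0.0417), and the block changed no other call of a named member. In the MPP comparison the count of 0 became 1 without Erg +/- HSC replicate 1 (Cd96) and without Erg fl/fl MPP replicate 3 (Clec4e), a range of 0 to 1. In the other comparisons it was 0 under all 21 alternatives. Of the 85 named differences, 2 changed sign, and 41 moved by over 1.5 times in size or turned with some array left out, and the 5 called differences were not among these. Ly9 between the Erg-reduced populations (0.01) was -0.0048 without Erg +/- HSC replicate 3 and -0.1266 without Erg -/- MPP replicate 3, in a range of -0.1266 to 0.1266 with 1 array left out. Slamf6 in MPPs (-0.13) was 0.0377 without Erg -/- MPP replicate 3, in a range of -0.3342 to 0.0377. The causes were not tested. Over all genes the calls ranged from 38 to 174 between the controls (128), 0 to 8 in HSCs (2), 4 to 10 in MPPs (8), 0 to 4 for the difference (2) and 12 to 13 with Erg reduced (12). Signals of 47 members lay within the range of the sensory receptor genes, which limits what these members can show.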
